A study of Mus musculus with 6 samples.

Results

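The genes described here are the collagens and a group of structural matrix genes, measured in RNA from cancer-associated dendritic cells. They were taken by symbol, as every collagen chain gene in the deposited table (38 genes) together with Eln, Sparc, Tnc, Fn1, Dcn, Lum, Fbn1 and Postn (8 genes), which makes 46 of 27634 genes. No expression value was used as a filter, but the members were chosen with earlier results of these data known. By structural class the collagens fell into 9 fibrillar, 8 network and basement membrane, 9 fibril-associated (FACIT), 5 beaded filament, 4 transmembrane and 2 multiplexin chains, and Col28a1.

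All 6 libraries came from C57BL/6 mice that carried ID8-Defb29/Vegf-a tumours, which derive from a mouse ovarian cancer line that expresses beta-defensin 29 and VEGF-A. The tumours had grown for 32 to 38 days. Every mouse, controls included, received 100 µg of siRNA in rhodamine-conjugated polyethylenimine nanocomplexes, particles that carry nucleic acid into cells. It was non-targeting siRNA (NT) or siRNA against Satb1, a gene for a chromatin-organising protein. The labels separate 2 experiments by how far Satb1 was downregulated. The high experiment had 2 NT and 2 Satb1 siRNA libraries, and the low experiment had 1 of each. The repeats of the high experiment differed by little more than counting noise, with a chi-square per gene of 1.202 for NT and 1.37 for Satb1 siRNA, and 67.4 when NT was set against Satb1 siRNA. Each group was therefore counted as 1 sample, and tests below compare libraries, not conditions. The sources used here do not say whether libraries came from separate mice or how the cells were sorted.

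Library totals ran from 24553454 to 71272720 counts. A floor of 3 counts, set as the limit for a count of 0, was 0.0421 to 0.122 CPM by library size alone. CPM values are counts scaled to a common library size, elsewhere by TMM over the 6 libraries unless stated. Satb1 itself had 16.6 and 15.3 CPM in the high NT libraries, 3.12 and 3.58 CPM with Satb1 siRNA, 8.89 CPM in the low NT library and 7.42 CPM in the low Satb1 siRNA library. Its level fell in the high experiment by 2.25 on the log2 scale (SE 0.072). In the low experiment the ratio of siRNA to NT was 0.835, with a 95% counting interval of 0.670 to 1.04, and by library size alone the log2 ratio was 0.095. All 8 dendritic cell markers listed were detected in every library, with summed levels of 21.4 to 571 CPM. Macrophage markers summed to between 1791 and 6493 CPM.

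Collagens are secreted proteins built of chains wound around one another. Fibrillar collagens form the fibrils of connective tissue, FACIT collagens lie on their surface, and type IV collagens form the sheet of the basement membrane together with laminins, nidogens and perlecan. Fibronectin links matrix to cell-surface integrins, elastin and fibrillin build elastic fibres, decorin and lumican are small proteoglycans that bind fibrils, and SPARC, tenascin-C and periostin are matricellular proteins, which alter how cells hold to matrix. Fibroblasts, smooth muscle and mesothelial cells, the lining of body cavities, are well-known producers, and macrophages make fibronectin.

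Promoters of 3 members whose siRNA differences were unequal in the 2 experiments are shown first, so that their sequence can be set beside their values. Of 46 members, 34 had an entry in the RefSeq promoter table (GRCm38.p6). Each sequence is the 150 bases before an annotated start, read 5′ to 3′ on the gene's own strand, with matches to the searched motifs in capitals. Sparc lies on the minus strand at chr11:55420081-55420230, Col6a1 on the minus strand at chr10:76726045-76726194 and Col16a1 on the plus strand at chr4:130047690-130047839.
Sparc: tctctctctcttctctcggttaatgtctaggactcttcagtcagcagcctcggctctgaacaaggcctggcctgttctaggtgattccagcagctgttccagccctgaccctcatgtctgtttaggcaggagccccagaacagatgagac
Col6a1: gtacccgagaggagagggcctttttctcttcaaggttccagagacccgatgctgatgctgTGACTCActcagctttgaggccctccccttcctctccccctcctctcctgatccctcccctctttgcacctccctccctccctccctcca
Col16a1: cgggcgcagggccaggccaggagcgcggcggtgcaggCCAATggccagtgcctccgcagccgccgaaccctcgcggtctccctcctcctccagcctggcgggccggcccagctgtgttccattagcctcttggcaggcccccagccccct

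The motifs were searched on both strands in the 250 bases before the start. The GC box GGGCGG was present in 17 of the 34 members and in 32.7% of 32851 promoters. CCAAT was present in 10 members and 33.8% of promoters, and the TATA box TATAAA in 6 members and 12.4%. The AP-1 letters TGANTCA were found in 1 member, Col6a1, and in 6.75% of promoters. Col16a1 held CCAAT and, upstream of the bases shown, a GC box, and the Sparc window shown held none of the 4 motifs. The starts of Col4a1 and Col4a2 lie head to head on chromosome 8 and their annotated ends overlap by 22 bases at chr8:11312805-11312826, shown on the plus strand with a GC box in capitals.
Col4a1 and Col4a2: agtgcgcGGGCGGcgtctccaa

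Per length of transcript, a few glycoprotein genes held most of the signal, and the fibrillar collagens were low. Levels between genes are given as the deposited FPKM (fragments scaled by gene length and library depth). Averaged over the 6 libraries, 4 members were at 10 FPKM or more, 10 between 1 and 10, and 32 under 1. Under 1 FPKM in every library were 28 members, 25 of them collagens. In the first high NT library Fn1 was at 276 FPKM, Dcn at 121 FPKM and Sparc at 86.8 FPKM, and the highest collagens were Col14a1 at 8.48 FPKM and Col4a2 at 6.42 FPKM. In the low Satb1 siRNA library the order was Sparc at 170 FPKM, Fn1 at 113 FPKM, Eln at 60.8 FPKM, Dcn at 42.5 FPKM and Col4a1 at 23.4 FPKM. Col1a1, a chain of the main fibrillar collagen of connective tissue, did not exceed 0.25 FPKM in any library.

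**Figure D1:**
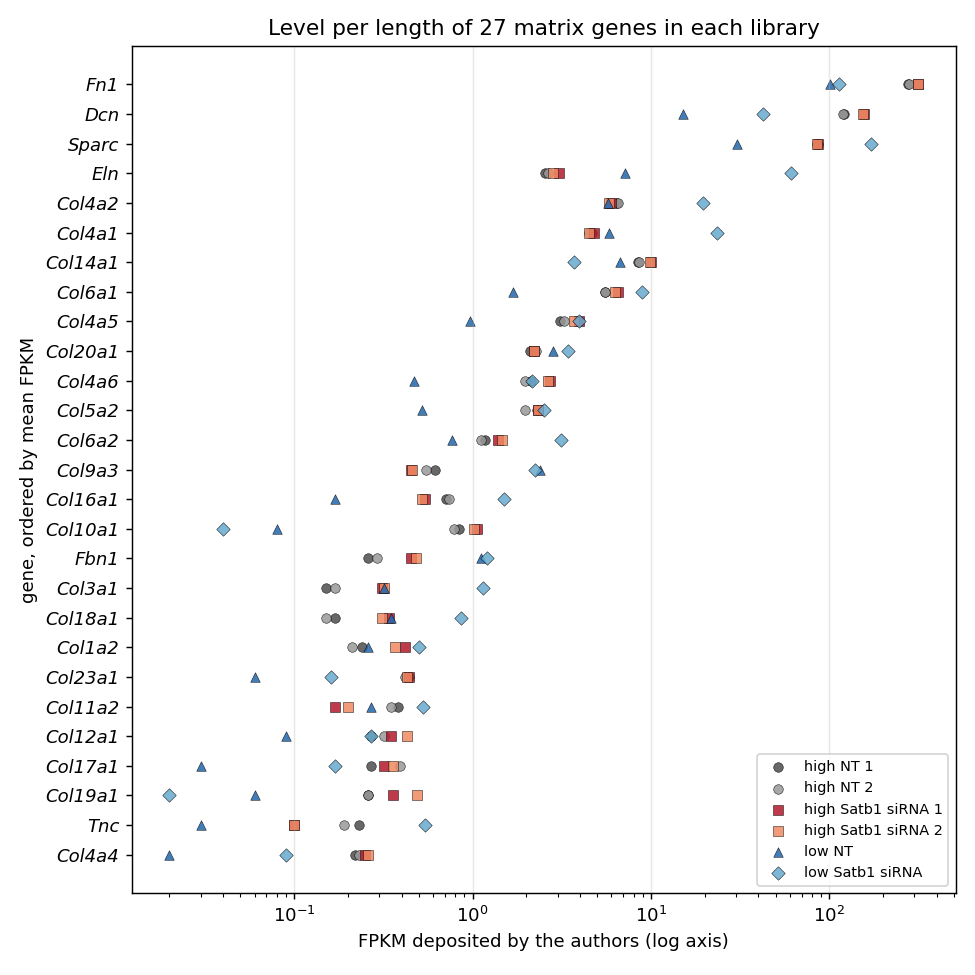
Level per length (deposited FPKM, log axis) of Tnc and the 26 members whose mean log2 CPM was at least 0, with 1 point per library. Repeats of the high experiment lie close together, and Fn1, Dcn and Sparc lie above all collagens in every library.

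In the high experiment the members shifted little, and in the low experiment most of the abundant ones stood past 2-fold higher with Satb1 siRNA. The summed level of the 38 collagens was 219 and 220 CPM with NT and 233 and 229 CPM with Satb1 siRNA in the high experiment. The low experiment had 231 CPM with NT and 513 CPM with Satb1 siRNA. The low Satb1 siRNA library thus stood above all 5 others. The place of low NT rested on the scaling, since by library size alone its sum was 163 CPM, below the 240 to 266 CPM of the high libraries, with 464 CPM in low Satb1 siRNA. Ratios of the sums were 1.05 in the high experiment and 2.22 in the low experiment. Col4a1 made up 11.7% to 34.2% of the collagen sum.

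By the edgeR quasi-likelihood test with adjustment over all genes, 45 members could be tested in the high experiment, and only Lum was too low. With Satb1 siRNA 20 of 45 rose (44.4%), where 32.8% of all 20242 genes tested were called higher. Another 7 fell (15.6%), where 33.2% of all genes were called lower, and 18 did not pass. The members' median log2 fold change was 0.17, and that of all genes tested was 0.01. Changes of 2-fold or more were found for 2 members upward and 3 downward, against 7.46% and 3.94% of all genes. Most calls, among the members as among all genes, were under 2-fold.

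The low experiment has no replicates, and its differences were described as log2 ratios of CPM (prior count 2) with 95% counting intervals, which cover counting error only. Of 26 members whose mean log2 CPM was at least 0, 16 were past 2-fold higher with Satb1 siRNA (61.5%), where 9.28% of 13700 such genes were. Past 2-fold lower were 3 members (11.5%), Col14a1, Col10a1 and Col19a1, against 3.93% of genes. Above 0 were 19 of the 26, where 44.7% of genes were. The members' median log2 ratio was 1.45 and the median of all genes was -0.06. Of the 26 counting intervals, 16 lay above 0, 5 below 0 and 5 across it. Scaling mattered for small differences here, since the TMM factors were 0.708 and 0.905 in the low libraries. By library size alone the median of all genes was 0.29 and that of the members 1.80. The gap between them was 1.51 by both scalings. A change of scaling shifts all ratios nearly alike, so the equal gap is no separate check. From the deposited FPKM, with 0.1 added to each value, the members' median was 1.07 and the gap 0.79.

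The siRNA differences of the experiments were compared as an interaction in edgeR. For 20 of 45 members the low experiment was the more positive, where 21.8% of genes were, and for 4 the more negative, where 17.9% were. Together 53.3% of the members tested were called, against 39.7% of all 20971 genes. Its spread came from the high repeats alone, so it compares libraries.

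Of the 8 network and basement membrane chains, 4 rose, 1 fell and 3 did not pass in the high experiment. Of the 6 abundant ones, 5 stood past 2-fold higher in the low experiment. Beside the class counts here and below stand all genes, with 32.8% called higher and 33.2% lower in the high experiment. In the low experiment 9.28% of genes were past 2-fold higher and 3.93% lower. Col4a1 and Col4a2 form the network found under most epithelia and vessels. Col4a1 read 29.1 and 27.8 CPM in the high NT, 28.4 and 26.6 CPM in the high Satb1 siRNA, 55.8 CPM in the low NT and 175 CPM in the low Satb1 siRNA library. The high groups overlapped, with a log2 fold change of -0.04 (SE 0.0357, edgeR adjusted p = 0.302) that turned positive by library size alone (0.01), and the low log2 ratio was 1.65 (1.55 to 1.75). The 2 effects differed by 1.70 (edgeR adjusted p = 6.34e-47). Col4a2 read 38.5 and 39.1 CPM in high NT, 34.4 and 33.7 CPM in high Satb1 siRNA, 53.6 CPM in low NT and 143 CPM in low Satb1 siRNA. It fell by 0.18 in the high experiment (SE 0.0307, edgeR adjusted p = 3.05e-07) and was higher in the low experiment by 1.42 (1.32 to 1.52). The FPKM ratio of Col4a1 to Col4a2 was 0.689 to 0.801 in the high libraries, 1.01 in low NT and 1.19 in low Satb1 siRNA.

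Col4a5 and Col4a6, whose genes also start head to head, encode chains of a second type IV network. For Col4a5 the levels were 18.7 and 19.6 CPM in high NT, 22.6 and 21.3 CPM in high Satb1 siRNA, 9.05 CPM in low NT and 28.7 CPM in low Satb1 siRNA. It rose by 0.20 in the high experiment (SE 0.0407, edgeR adjusted p = 1.50e-05), and the low log2 ratio was 1.66 (1.42 to 1.92). For Col4a6 they were 12.9 and 11.7 CPM, 14.8 and 14.2 CPM, 4.55 CPM and 15.5 CPM in the same order, with a rise of 0.25 (SE 0.0522, edgeR adjusted p = 2.64e-05) and a low log2 ratio of 1.76 (1.43 to 2.13). Both low NT values lay below every high library, and by TMM both low Satb1 siRNA values lay above every high library. The latter rested on the scaling. By library size alone Col4a6 in low Satb1 siRNA was at 14.05 CPM, within the 12.8 to 16.9 CPM of the high libraries. Col4a5 was at 25.9 CPM there, against up to 25.8 CPM. Col4a4, a chain of the glomerular network, was lower throughout, at 1.75 and 1.55 CPM, 1.68 and 1.77 CPM, 0.261 CPM and 0.855 CPM. Its high log2 fold change of 0.07 did not pass (SE 0.142, edgeR adjusted p = 0.685), and its low log2 ratio of 1.57 had a wide interval (0.24 to 3.49).

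Col10a1, a network collagen, is best known from growth-plate cartilage. It read 2.48 and 2.41 CPM in high NT and 3.07 and 3.004 CPM in high Satb1 siRNA, without overlap. The rise of 0.32 (SE 0.112, edgeR adjusted p = 0.01) was lost in DESeq2 (adjusted p = 0.152), without the high NT repeat 2 (edgeR adjusted p = 0.0707) and without the high Satb1 siRNA repeat 1 (edgeR adjusted p = 0.0544). In the low libraries it had 7 and 3 counts, too few for a direction (log2 ratio -1.22, -4.02 to 0.69). The 8 network chains summed to 105 and 103 CPM, 106 and 102 CPM, 124 CPM and 365 CPM. Ratios of these sums were 1.00 in the high and 2.94 in the low experiment. By library size alone low NT was at 87.9 CPM, below the 113 to 122 CPM of the high libraries.

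Of the 9 fibrillar chains 3 rose, 1 fell and 5 did not pass in the high experiment, so that the share that rose was near the 32.8% of all genes. Col3a1, the chain of type III fibrils of soft tissue, read 0.781 and 0.769 CPM in high NT, 1.27 and 1.38 CPM in high Satb1 siRNA, 2.56 CPM in low NT and 7.20 CPM in low Satb1 siRNA. The high groups did not overlap, with a rise of 0.77 (SE 0.181, edgeR adjusted p = 1.41e-04), and the low log2 ratio was 1.48 (1.02 to 1.98). Col1a2, a type I chain, read 0.781 and 0.705 CPM, 1.51 and 1.36 CPM, 1.88 CPM and 2.70 CPM, and rose by 0.95 in the high experiment (SE 0.179, edgeR adjusted p = 3.57e-06). The low log2 ratio of Col1a2 was 0.51 (-0.10 to 1.16), an interval that spans 0.

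Col5a2, a type V chain that takes part in starting fibrils, read 11.5 and 10.4 CPM, 10.7 and 10.4 CPM, 4.97 CPM and 18.9 CPM. Its high values overlapped (log2 fold change -0.04, SE 0.0586, edgeR adjusted p = 0.527, and 0.01 by library size alone), while the low log2 ratio was 1.92 (1.61 to 2.27). Col11a2, a type XI chain known from cartilage, read 1.67 and 1.82 CPM, 0.814 and 0.912 CPM, 2.09 CPM and 2.74 CPM. It fell by 1.01 in the high experiment (SE 0.166, edgeR adjusted p = 1.90e-07), and its low log2 ratio of 0.39 (-0.21 to 1.01) spanned 0. Col1a1 was too low to be listed singly by level, with 15 to 21 counts in the high libraries and 28 and 30 counts in the low ones (high edgeR adjusted p = 0.308). Fibrillar chains as a class summed to 15.4 to 16.5 CPM in the high libraries, 13.4 CPM in low NT and 33.9 CPM in low Satb1 siRNA.

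Type VI collagen surrounds cells as fine beaded filaments. Of its 5 chains among the members, 2 rose, 1 fell and 2 did not pass in the high experiment. Of all genes tested, 32.8% were called higher and 33.2% lower there. Col6a1, with the AP-1 letters shown above, read 20.5 and 20.4 CPM in high NT, 22.9 and 21.9 CPM in high Satb1 siRNA, 9.73 CPM in low NT and 40.4 CPM in low Satb1 siRNA. It rose by 0.14 (SE 0.0392, edgeR adjusted p = 0.00187), which was lost in DESeq2 (adjusted p = 0.0859) and without the high Satb1 siRNA repeat 1 (edgeR adjusted p = 0.0560), and its low log2 ratio was 2.05 (1.82 to 2.29). Col6a2, its neighbour on the same strand, read 4.70 and 5.04 CPM, 6.12 and 6.47 CPM, 4.29 CPM and 13.6 CPM. The rise was 0.37 (SE 0.0803, edgeR adjusted p = 4.04e-05) and the low log2 ratio 1.66 (1.31 to 2.03). Differences between the experiments were 1.92 for Col6a1 (edgeR adjusted p = 6.88e-32) and 1.29 for Col6a2 (edgeR adjusted p = 2.27e-09).

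FACIT chains were the one class whose sum was lower in the low Satb1 siRNA library, at 50.8 CPM against 73.5 CPM in low NT and 64.9 to 72.0 CPM in the high libraries. Col14a1, which binds fibrils in soft connective tissue, carried 41.8% to 74.3% of that sum. In the high experiment 3 of 9 chains rose, 2 fell and 4 did not pass. The share that rose was near the 32.8% of all genes, and 33.2% of all genes fell. Levels of Col14a1 were 47.6 and 48.4 CPM in high NT, 53.5 and 52.5 CPM in high Satb1 siRNA, 47.9 CPM in low NT and 21.2 CPM in low Satb1 siRNA. Col14a1 rose by 0.15 in the high experiment (SE 0.0269, edgeR adjusted p = 2.13e-06) and was lower in the low experiment by a log2 ratio of -1.18 (-1.34 to -1.02), or -0.82 by library size alone. These effects differed by -1.32 (edgeR adjusted p = 1.24e-28).

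The 6 abundant FACIT chains had no common direction in the low experiment, with 2 past 2-fold higher, 2 lower and 2 between. Col16a1 was among the higher ones. It read 3.04 and 3.09 CPM, 2.56 and 2.503 CPM, 1.31 CPM and 7.83 CPM, and the low log2 ratio was 2.55 (1.97 to 3.25). The fall in the high experiment of -0.27 (SE 0.111, edgeR adjusted p = 0.0266) was lost by library size alone, in DESeq2 and without each high repeat in turn (edgeR adjusted p from 0.0664 to 0.102). Col12a1, a chain of tendon and fascia, read 3.10 and 3.50 CPM, 3.42 and 3.47 CPM, 0.732 CPM and 2.20 CPM, with a low log2 ratio of 1.54 (0.71 to 2.56) and no call in the high experiment (edgeR adjusted p = 0.579).

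Col19a1 was highest in the high Satb1 siRNA libraries, at 3.14 and 3.86 CPM against 2.20 and 2.23 CPM with NT, and rose by 0.66 (SE 0.113, edgeR adjusted p = 5.61e-07). In the low experiment it had 14 counts with NT and 2 counts with Satb1 siRNA (log2 ratio -2.58, -6.20 to -0.90). Col9a3, a cartilage chain, stood higher in the low libraries at 9.36 and 6.52 CPM than in the high ones at 0.858 to 1.35 CPM. Its high fall of -0.46 (SE 0.174, edgeR adjusted p = 0.0157) was lost in DESeq2 (adjusted p = 0.169), without the high NT repeat 1 (edgeR adjusted p = 0.0722) and without the high Satb1 siRNA repeat 2 (edgeR adjusted p = 0.166). The low log2 ratio of Col9a3 was -0.52 (-0.85 to -0.20), or -0.16 by library size alone and -0.10 from FPKM. Col20a1 was at 6.53 to 7.25 CPM in the high libraries and at 13.4 and 12.5 CPM in the low NT and Satb1 siRNA libraries, and neither experiment separated its siRNA groups (high log2 fold change -0.04, edgeR adjusted p = 0.614, and 0.01 by library size alone; low -0.10, -0.35 to 0.15, and 0.26 by library size alone).

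Chains anchored in or near the cell surface were scarce. Col17a1, a transmembrane collagen of the junction between epithelium and basement membrane, read 1.44 and 2.11 CPM, 1.59 and 1.77 CPM, 0.209 CPM and 1.03 CPM. Its high groups overlapped (edgeR adjusted p = 0.652) and the low log2 ratio was 2.11 (0.76 to 4.30). Col23a1, also transmembrane, read 2.34 and 2.26 CPM, 2.24 and 2.13 CPM, 0.471 CPM and 1.03 CPM, with no call in the high experiment (edgeR adjusted p = 0.637) and a low log2 ratio of 1.08 whose interval reached below 0 (-0.03 to 2.43). Col18a1, the multiplexin whose end fragment is endostatin, read 0.795 and 0.782 CPM, 1.59 and 1.52 CPM, 2.56 CPM and 4.14 CPM. Col18a1 rose by 0.99 in the high experiment (SE 0.172, edgeR adjusted p = 7.70e-07), its low log2 ratio was 0.68 (0.18 to 1.22), and the difference of -0.29 between experiments was not called (edgeR adjusted p = 0.514).

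Sparc and Eln showed the widest separation of the low libraries among the abundant glycoproteins. Eln, the precursor of elastin, read 9.93 and 10.3 CPM in high NT, 11.6 and 10.8 CPM in high Satb1 siRNA, 39.0 CPM in low NT and 260 CPM in low Satb1 siRNA, from 746 and 5787 counts in the low pair. The low log2 ratio was 2.74 (2.63 to 2.85), a 6.67-fold difference. In the high experiment Eln rose by 0.15 (SE 0.0583, edgeR adjusted p = 0.0202), and that call was lost in DESeq2 (adjusted p = 0.203), without the high NT repeat 1 (edgeR adjusted p = 0.181) and without the high Satb1 siRNA repeat 1 (edgeR adjusted p = 0.254).

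Sparc, a collagen-binding protein, read 184 and 182 CPM in high NT, 176 and 174 CPM in high Satb1 siRNA, 100 CPM in low NT and 441 CPM in low Satb1 siRNA. The high fall of -0.06 (SE 0.0167, edgeR adjusted p = 0.00105) was lost by library size alone (edgeR adjusted p = 0.771). In the low experiment the log2 ratio of Sparc was 2.14 (2.06 to 2.21), and the experiments differed by 2.20 (edgeR adjusted p = 9.70e-70).

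Dcn, which encodes decorin, rose in the high experiment and stood higher in the low one. It read 206 and 203 CPM, 255 and 253 CPM, 40.8 CPM and 89.4 CPM. The rise was 0.32 (SE 0.0138, edgeR adjusted p = 7.10e-33) and the low log2 ratio 1.13 (1.01 to 1.25), although both low libraries lay below every high one. Its neighbour Lum, which encodes lumican, had 10 and 13 counts in high NT, 1 and 4 in high Satb1 siRNA, 1 in low NT and 0 in low Satb1 siRNA.

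Fn1, the most abundant member in 5 of the 6 libraries by FPKM, differed little between siRNAs. Its levels were 1002 and 1009 CPM in high NT, 1113 and 1104 CPM in high Satb1 siRNA, 1098 CPM in low NT and 971 CPM in low Satb1 siRNA. Fn1 rose by 0.15 in the high experiment (SE 0.00377, edgeR adjusted p = 4.12e-16), and its low log2 ratio of -0.18 (-0.20 to -0.15) became 0.18 by library size alone. Its deposited FPKM was likewise higher with Satb1 siRNA there, at 113 FPKM against 100.19 FPKM, both under the 276 to 314 FPKM of the high libraries. Fbn1, the fibrillin of microfibrils, read 1.99 and 2.24 CPM, 2.80 and 2.68 CPM, 16.1 CPM and 13.5 CPM. The high rise of Fbn1 was 0.37 (SE 0.12, edgeR adjusted p = 0.0049), lost in DESeq2 (adjusted p = 0.110) and without the high NT repeat 1 (edgeR adjusted p = 0.0888). In the low experiment its log2 ratio of -0.24 (-0.48 to -0.01) turned to 0.11 by library size alone.

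The 20 members with a mean log2 CPM under 0 had 0 to 4.004 CPM. In the high experiment 6 of them rose, 2 fell, 11 did not pass and Lum was not tested. Of all genes tested, 32.8% rose and 33.2% fell there. Tnc, Col6a6, Col13a1 and Col28a1 are named here after their values were seen, because they changed by 2-fold or more there. Tnc, which encodes tenascin-C, had 77 and 83 counts in high NT, 26 and 26 in high Satb1 siRNA, 7 in low NT and 89 in low Satb1 siRNA. Its siRNA groups were thus separated in opposite directions, by a fall of -1.21 in the high experiment (SE 0.219, edgeR adjusted p = 1.91e-06) and a low log2 ratio of 3.32 (2.35 to 4.81). Col6a6, a type VI chain, had 44 and 47 counts in high NT against 15 and 18 with Satb1 siRNA, a fall of -1.05 (edgeR adjusted p = 0.0009615) that was lost in DESeq2 (adjusted p = 0.05115).

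Col28a1 had 22 and 17 counts in high NT against 46 and 30 with Satb1 siRNA, and rose by 1.36 (edgeR adjusted p = 2.94e-05). Col13a1, a transmembrane chain, had 7 and 17 against 20 and 22 counts, and its rise of 1.21 (edgeR adjusted p = 0.00365) was lost in DESeq2 (adjusted p = 0.101) and without the high NT repeat 1 (edgeR adjusted p = 0.138). In the low NT library 7 members had a count of 0. Against a floor of 3 counts per library, Col6a6 was 4.02-fold higher with Satb1 siRNA, Col28a1 and Col6a4 2.01-fold and Col9a2 1.72-fold. These folds leave out the counting error of the Satb1 siRNA library, so they are not minima. The counting intervals reached down to 2.85-fold for Col6a6, 1.24-fold for Col28a1 and Col6a4, and 1.01-fold for Col9a2. Col13a1, Col22a1 and Col9a1, also at 0 in low NT, had 0, 2 and 1 counts with Satb1 siRNA. Col11a1, Col2a1 and Lum had 1 count in low NT and 0 in low Satb1 siRNA.

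The control libraries of the experiments also differed for these genes. Among the 26 abundant members, low NT was past 2-fold lower than the mean of high NT for 12 (46.2%, where 22.7% of all such genes were) and past 2-fold higher for 6 (23.1%, against 25.7%). Below 0 were 15 of the 26, where 47.7% of genes were. The members' median log2 difference was -0.52 and that of all genes 0.07. Of the 16 members past 2-fold higher with Satb1 siRNA in the low experiment, 12 stood lower in low NT than in high NT, while Col4a1, Col4a2, Col3a1 and Eln stood higher. By library size alone 13 stood lower, since Col4a2 turned from 0.47 to -0.16. The low NT library entered both ratios. Picking members by a rise over it favoured lower values there, so these counts are descriptive only. Dcn was lower in low NT by 2.32 on the log2 scale, and Fbn1 was higher by 2.90. The sources used here do not say what sets the experiments apart other than Satb1.

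**Figure D2:**
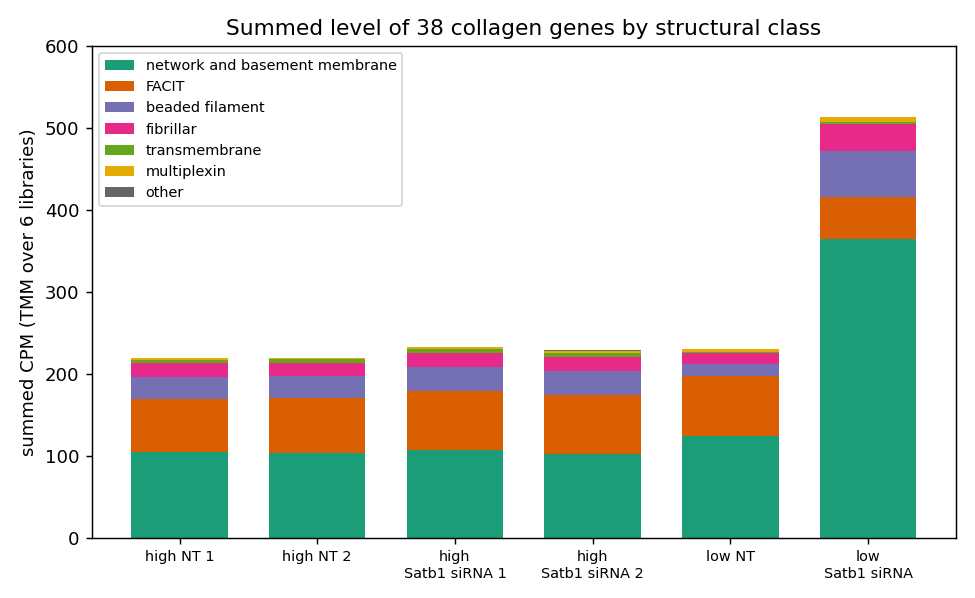
Summed CPM (TMM over 6 libraries) of the collagens of each structural class, with 1 bar segment per class and 1 bar per library. The low Satb1 siRNA library reaches 513 CPM and the other 5 lie between 219 and 233 CPM by this scaling (low NT is at 163 CPM by library size alone, under the 4 high libraries); network chains make up 365 CPM of the first.

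Marker lists went both ways in the low experiment. Mesothelial, epithelial and tumour, smooth muscle and dendritic cell sums were higher with Satb1 siRNA. By TMM the fibroblast, endothelial, macrophage and platelet sums were lower. The 10 mesothelial markers summed to 617 and 622 CPM in high NT, 737 and 728 CPM in high Satb1 siRNA, 174 CPM in low NT and 629 CPM in low Satb1 siRNA, and 8 of the 9 that were abundant enough stood past 2-fold higher in the low experiment. Each of the 10 was detected in every library, and 9 rose and 1 fell in the high experiment. Of all genes, 32.8% were called higher and 33.2% lower there, and 9.28% were past 2-fold higher in the low experiment. The 9 epithelial and tumour markers, with Krt19 on both lists, summed to 511 to 522 CPM in the high libraries, 93.3 CPM in low NT and 281 CPM in low Satb1 siRNA, and 7 of 7 stood past 2-fold higher in the low experiment. Smooth muscle and pericyte markers (8 genes) summed to 11.8 to 13.6, 23.2 and 36.9 CPM. Dendritic cell markers (8 genes) summed to 358 CPM in low NT and 571 CPM in low Satb1 siRNA, with 37.1 and 38.7 CPM in high NT and 22.999 and 21.4 CPM in high Satb1 siRNA.

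Fibroblast markers differed less, and the direction of their sum in the low experiment turned with the scaling. The 12 genes summed to 24.6 to 27.9 CPM in the high libraries, 31.6 CPM in low NT and 27.7 CPM in low Satb1 siRNA, where library size alone gave 22.4 and 25.1 CPM in the low pair. Of 5 abundant ones 3 were above 0 (median 0.67), and 2 stood past 2-fold higher and 1 lower there. Of all genes, 9.28% stood past 2-fold higher and 3.93% lower. Pdgfra, Pdgfrb, Pi16, Fap, Prrx1 and Cdh11 were above the floor of 3 counts in all 6 libraries. Thy1 was above it in 5 and Twist1 in 1. Dpt, Clec3b, Twist2 and Tcf21 were at 0 in both low libraries. Fap made up 23.9% to 51.4% of the fibroblast sum. Endothelial markers (8 genes) summed to 12.3 to 15.99, 80.05 and 72.1 CPM, the low pair turning to 56.6 and 65.2 CPM by library size alone, and macrophage markers (9 genes) to 1791 to 2017, 6493 and 4382 CPM. Platelet and megakaryocyte markers (6 genes) summed to 493 to 635, 576 and 310 CPM. Pf4 alone made up 84.4% to 97.2% of that sum. The part of other cells in the members' levels was not tested, and in bulk RNA more cells of a type and more RNA per cell cannot be told apart.

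**Figure D3:**
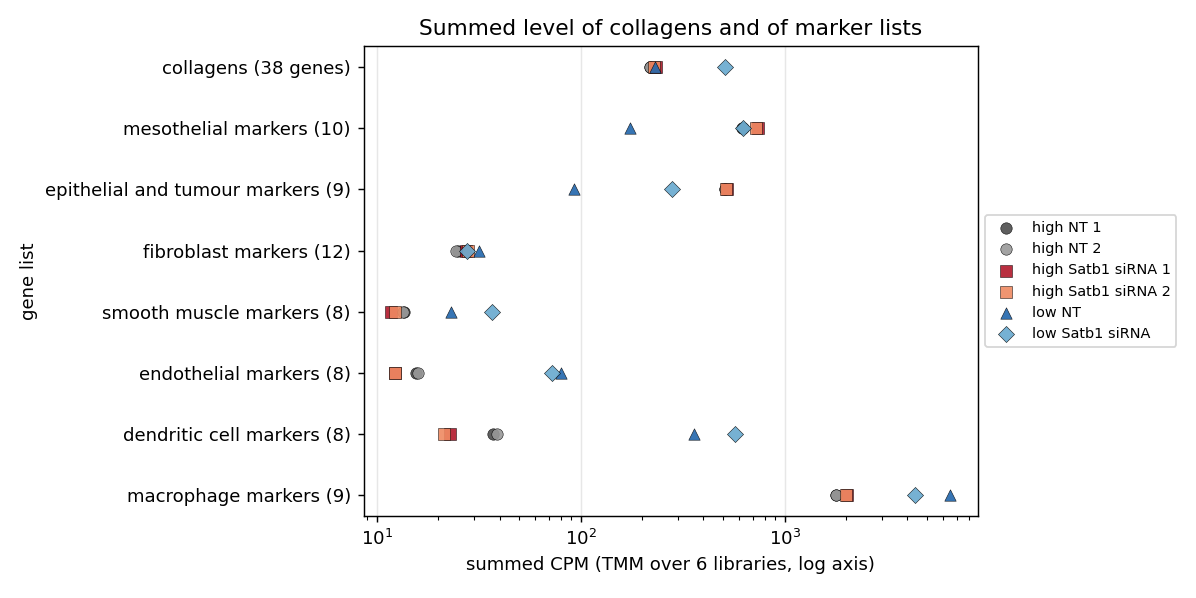
Summed CPM (TMM over 6 libraries, log axis) of the collagens and of 7 marker lists, with 1 point per library. Mesothelial markers go from 174 CPM in low NT to 629 CPM in low Satb1 siRNA, fibroblast markers from 31.6 to 27.7 CPM (22.4 to 25.1 CPM by library size alone).

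Counts for the gene lists that follow stand beside 32.8% of all genes called higher and 33.2% called lower in the high experiment, and 9.28% and 3.93% past 2-fold higher and lower in the low. Most genes that fold and modify collagen chains inside the cell fell in the high experiment. Of 17 chaperones and modifying enzymes, 3 rose, 13 fell and 1 did not pass (median log2 fold change -0.38), and in the low experiment 3 of 15 were past 2-fold higher and none lower (median -0.33, or 0.02 by library size alone). P4hb, a subunit of prolyl 4-hydroxylase that also serves other secreted proteins, read 2220 and 2219 CPM, 1411 and 1401 CPM, 1169 CPM and 705 CPM, a fall of -0.65 in the high experiment and a log2 ratio of -0.73 in the low. P4ha1, the catalytic subunit, fell by 0.24 and Ppib, a prolyl isomerase, fell by 0.43, with low log2 ratios of -0.59 and -0.53. Serpinh1 encodes HSP47, the chaperone that is largely confined to collagen. It read 62.8 and 61.7 CPM, 48.1 and 47.4 CPM, 19.03 CPM and 64.4 CPM, and so fell by 0.38 in the high experiment (edgeR adjusted p = 2.26e-21) with a low log2 ratio of 1.76.

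Genes for enzymes that act on collagen outside the cell mostly stood higher with Satb1 siRNA in the low experiment. Of 11 processing and cross-linking genes, 7 rose, 2 fell and 2 did not pass in the high experiment (median 0.19), and 7 of 10 were past 2-fold higher in the low (median 1.83). Lox, the lysyl oxidase that cross-links collagen and elastin, read 9.70 and 9.68 CPM, 11.5 and 10.7 CPM, 2.30 CPM and 15.7 CPM. It rose by 0.20 (edgeR adjusted p = 0.00223), lost in DESeq2 (adjusted p = 0.0751) and without the high Satb1 siRNA repeat 1 (edgeR adjusted p = 0.0742), and had a low log2 ratio of 2.75. Loxl2, a related oxidase, and Pcolce, which enhances procollagen cleavage, had low log2 ratios of 1.70 and 1.97. Tgm2, a transglutaminase, fell by 0.63 in the high experiment, and its low log2 ratio was -0.06, or 0.29 by library size alone.

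Partners of type IV collagen in the basement membrane are laminins, nidogens and proteoglycans such as perlecan. Of 12 laminin and nidogen genes, 7 rose, 1 fell and 4 did not pass in the high experiment (median 0.30), and 4 of 8 were past 2-fold higher and 1 lower in the low (median 0.89). Lama5, a laminin chain, rose by 0.43 in the high experiment with a low log2 ratio of 1.80. Lamc1, the common gamma chain, fell by 0.08, lost by library size alone (edgeR adjusted p = 0.151), with a low log2 ratio of 0.34. Agrn, a proteoglycan of basement membranes, was not called in the high experiment (edgeR adjusted p = 0.423), and its low log2 ratio was 0.76. Hspg2, which encodes perlecan, read 33.4 and 33.1 CPM, 45.1 and 44.4 CPM, 61.5 CPM and 264 CPM, a rise of 0.43 (edgeR adjusted p = 1.07e-21) and a low log2 ratio of 2.10.

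Collagen receptors were mixed. Of 11, 7 rose, 2 fell and 2 did not pass in the high experiment (median 0.19), and 3 of 9 were past 2-fold higher and 2 lower in the low (median 0.53). Ddr1, a receptor tyrosine kinase of epithelial cells, read 18.5 and 18.2 CPM, 19.98 and 20.9 CPM, 35.9 CPM and 115 CPM, with a rise of 0.16 and a low log2 ratio of 1.68. Itgb1, the shared integrin chain, and Lair1, an inhibitory collagen receptor of leukocytes, rose by 0.07 and 0.19, with low log2 ratios of -0.54 and -0.25, the latter 0.11 by library size alone. Elastic fibre partners split, with 5 of 13 higher, 4 lower and 4 not called in the high experiment (median 0.12), and 3 of 9 past 2-fold higher in the low (median 0.66), or 5 by library size alone. Of these, Fbln2 and Ltbp3 rose by 0.12 each with low log2 ratios of 1.34 and 0.29, and Emilin2 fell by 0.03, a direction that turned by library size alone (0.02), with a low log2 ratio of -0.81.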

How the data were processed

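Total RNA was isolated with Trizol and sequenced from TruSeq Stranded Total RNA libraries, per the labels' protocols. The authors deposited, per the file headers, FPKM values and counts by gene and library. The deposited counts were taken for estimated counts, since RSEM 1.2.12, DESeq2 and the build mm9 are named in the submitters' processing notes; the values were whole already. The sources used here name no aligner, annotation or strand setting, so overlapping genes cannot be told apart.

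Counts of all genes were fitted in edgeR 4.0.16 (R 4.3.3; quasi-likelihood, robust, TMM, filterByExpr, two-sided, Benjamini-Hochberg, threshold 0.05) over the 4 high libraries, and as an interaction over 4 group means. Each SE was worked back from the test, as the absolute log2 fold change over the square root of the F statistic. It is not a measured spread between repeats. The low experiment was described by log2 ratios with exact 95% binomial counting intervals. Alternatives included DESeq2 1.42.0, other scalings and leaving out each repeat. Repeats were compared by chi-square over genes with at least 10 counts.

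Members whose mean log2 CPM was at least 0 were described singly, and of each of 8 pathway lists the 3 with the highest mean CPM, plus Serpinh1, Lox, Itgb1, Lair1 and Tgfb1; 1 of these genes is not reported here. The members and lists were chosen with earlier results of these data known. Gene order and orientation came from a GENCODE annotation and promoters from RefSeq, both of GRCm38, not the files' build.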

Additional observations from a re-analysis of the deposited data

Results flagged for a closer look

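The difference between the siRNA effects of the experiments, as low minus high on the log2 scale, was past the threshold of the edgeR interaction test for 24 members. Among basement membrane chains it was 1.70 for Col4a1, 1.61 for Col4a2, 1.64 for Col4a4, 1.47 for Col4a5 and 1.53 for Col4a6. In fibrillar and beaded filament chains it was 1.98 for Col5a2, 0.72 for Col3a1, 1.41 for Col11a2, 1.92 for Col6a1 and 1.29 for Col6a2. FACIT chains fell on both sides, with 2.86 for Col16a1, 1.53 for Col12a1, -1.32 for Col14a1 and -3.65 for Col19a1. Col17a1 had 2.38. Of the glycoproteins, Tnc had 4.65, Eln 2.59, Sparc 2.20, Dcn 0.82, Fn1 -0.32 and Fbn1 -0.61. For 3 chains with a count of 0 in low NT the edgeR adjusted p alone is given, at 6.36e-06 for Col6a6, 0.00661 for Col6a4 and 0.025 for Col9a2. The test takes its spread from the near-identical high repeats and has 1 library per low group, so that it shows unequal differences between these libraries.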

How the results depend on the processing

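Repeats of the high experiment were near identical and the low experiment had single libraries, so no value here carries the spread between mice. The correlation of deviations between equal replicate numbers was -0.0425 across 13700 genes. With repeats this near counting noise, it cannot tell whether replicate numbers paired the samples. With a replicate block 20 members were higher and 7 lower, as without it. DESeq2 called 12 higher and 4 lower, and leaving out each repeat gave 16 to 20 higher and 5 to 6 lower. With the repeats summed and the experiment as a term, which takes in the low experiment, edgeR called 0 members in either direction (3 at an unadjusted p under 0.05); DESeq2 on these sums, chosen after seeing the data, called 1, Eln, higher and 0 lower (9 unadjusted).

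In the low experiment, library size alone left 1 member past 2-fold lower and FPKM left 0, while 14 to 17 were past 2-fold higher. The interaction called 20 members more positive and 4 more negative; by library size alone 22 and 2, and in DESeq2 12 and 3. On the log2 scale the summed ratio of all members by library size alone was 0.192 in the high and 0.943 in the low experiment, of collagens 0.133 and 1.51, and of network chains 0.0646 and 1.91. Without the most abundant gene it was 0.120 and 1.63 for all members, 0.949 for collagens and 1.47 for network chains in the low experiment.

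Signs of the high log2 fold change turned as follows. By library size alone they were 0.011 for Col20a1, 0.012 for Col4a1, 0.011 for Col5a2, 0.025 for Emilin2 and 0.017 for Agrn. With summed repeats they were -0.17 for Col10a1, -0.50 for Col14a1, 1.04 for Col16a1, 0.78 for Col17a1, -0.41 for Col19a1, 0.41 for Col23a1, 0.80 for Col4a1, 0.61 for Col4a2, 0.90 for Col5a2, -0.014 for Fn1, 1.03 for Sparc, 0.84 for Tnc, 0.72 for Col6a6, 0.87 for Pcolce, -0.23 for Itgb1, -0.027 for Lair1, 0.13 for Lamc1, 0.36 for Agrn, -0.034 for Itga4, -0.17 for Skil and 0.66 for Serpinh1. Leaving out each high repeat in turn gave -0.024 to 0.15 for Col12a1, -0.33 to 0.22 for Col17a1, -0.12 to 0.029 for Col20a1, -0.088 to 0.0023 for Col4a1, -0.025 to 0.15 for Col4a4 and -0.12 to 0.022 for Col5a2, and none of these 6 was called in the high experiment.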

Other observations

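Several abundant genes of the matrix lists were lower with Satb1 siRNA in both experiments. Thbs1, the matricellular thrombospondin that platelets and macrophages release, read 4203 and 4178 CPM in high NT, 1980 and 1951 CPM in high Satb1 siRNA, 2641 CPM in low NT and 1196 CPM in low Satb1 siRNA. Its log2 fold change was -1.09 in the high experiment (edgeR adjusted p = 5.60e-05) and its log2 ratio -1.14 in the low. Vcan, a large proteoglycan, read 143 and 145 CPM, 61.8 and 59.9 CPM, 256 CPM and 130 CPM, with values of -1.24 (edgeR adjusted p = 1.04e-56) and -0.98. Srgn, the proteoglycan of secretory granules, had -0.61 and -1.004, and Tgfb1 had -0.56 and -0.67. By library size alone the low log2 ratios were -0.79 for Thbs1, -0.62 for Vcan, -0.65 for Srgn and -0.32 for Tgfb1. Spp1, which encodes osteopontin, fell by 1.78 in the high experiment and had a low log2 ratio of 0.56.

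As lists these were mixed, beside 32.8% of all genes called higher and 33.2% called lower in the high experiment and 9.28% and 3.93% past 2-fold in the low. Of 11 proteoglycans, 4 rose, 3 fell and 4 did not pass in the high experiment, and 3 of 5 were past 2-fold higher and 1 lower in the low. Among 16 fibronectin receptors and matricellular genes, 8 rose, 5 fell and 3 did not pass, and 3 of 10 were past 2-fold higher and 1 lower in the low. The 10 TGF-beta ligands, receptors and reporters split into 4 rises, 4 falls and 2 without a call, and 3 were past 2-fold higher and 1 lower in the low. Itga4, an integrin chain that binds fibronectin, rose by 0.41, Tgfbr2 by 0.37 and Skil, a reporter of TGF-beta signalling, by 0.15, with low log2 ratios of -0.48, -0.25 and -0.50, that of Tgfbr2 being 0.11 by library size alone.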
